A study of Mus musculus with 62 samples.

Results

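Wheel running was compared in mice given both supplements of the study, nicotinamide riboside (NR, a form of vitamin B3 that cells turn into NAD) and pterostilbene (PT, a resveratrol-like compound found in plants). The comparison takes 16 of the 62 libraries, chosen by their titles: 8 from runners (Training_NR_PT) and 8 from untrained mice (noTraining_NR_PT, here called non-runners). All 16 came from the quadriceps of male mice, and both groups received NR and PT. Of the treatment labels only training state differs between the groups, and the labelled body weight change differed as well. NR was intravenous by the series title. The sources used here give no strain, age, dose or length of running. The other 46 libraries, from running and non-running mice given NR alone, PT alone or neither, enter the fit and serve as the background to the running effect. Totals were 9.19 to 27.22 M counts in runners and 13.37 to 25.62 M in non-runners.

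Repeated endurance activity is known to raise mitochondrial oxidative capacity and capillary supply in skeletal muscle and to shift fibres toward slower, more oxidative types. Mitochondrial oxidative phosphorylation (OXPHOS) is carried out by respiratory complexes whose subunits come from the nucleus and from mitochondrial DNA. Muscle also carries genes that mark denervated, regenerating or wasting fibres, such as the fetal acetylcholine receptor subunit Chrng and the ubiquitin ligase Trim63. NR enters the NAD pool through the kinases Nmrk1 and Nmrk2, and NAD is used by sirtuins and by Cd38.

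The libraries had the profile of fast quadriceps muscle. Myh4, the fastest myosin heavy chain, averaged 55116 CPM in runners and 61993 in non-runners (CPM, the usual depth-scaled count, on TMM-scaled library sizes). Myh7, the slow myosin heavy chain, had medians of 2.52 and 1.53 CPM. One runner library, number 6, also held liver transcripts. Of 20 hepatocyte genes listed after this was seen, 7 had no count in any of the other 15 libraries, Apoa1, Fga, Fgb and Fgg among them. The summed level of all 20 listed genes was 788.3 CPM of total counts in runner 6, against 12 to 51.3 in the other runners. It was 6.51 to 106.7 in the non-runners and at most 122.6 in the 46 libraries of the other groups. In non-runner 7, Hp held 81 and Cyp2e1 16.55 CPM of this sum. Ribosomal-RNA-like counts were above 5 times the median of all libraries in 4 of the 16 (runner 5 and non-runners 2, 6 and 8). On each of the 8 termination days 1 of these runners and 1 non-runner were terminated, 1 in the morning and 1 at noon, so within a day running and time of day cannot be told apart. Over the days, each group had 4 morning and 4 noon animals.

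Body weight change had an adjusted p below 0.05 in the exact permutation test and in the sign-flip permutation test over pairs. The mitochondrial share of counts had one in the sign-flip test only, with the same adjusted p there. Body weight change (the labels give no unit) was -2.14 ± 1.95 in runners and 1.95 ± 1.79 in non-runners (SD, n = 8 each). The two-sided exact permutation test of the 2 groups, which ignores the pairs, gave p = 0.000466 (adjusted p = 0.0028 over 6 library measures). Body weight change was lower in the runner in 7 of 8 day-matched pairs. The exact sign-flip permutation test over these 8 pairs gave p = 0.0156 (sign-flip permutation test, adjusted p = 0.0469). Among runners the 4 morning animals lay between -5.2 and -2.1 and the 4 noon animals between -1.4 and -0.2, without overlap. Weight change largely followed running here, and its part in the gene changes below was not tested. Mitochondrially encoded genes took 12.7 ± 2.33% of counts in runners and 10.4 ± 0.96% in non-runners, and the share was higher in the runner in all 8 pairs. The exact permutation test gave p = 0.021 (adjusted p = 0.0629) and the sign-flip test over pairs p = 0.00781 (adjusted p = 0.0469). Morning runners had a median share of 15%, noon runners 10.8%, and non-runners 10.3% at both times. RIN, an RNA integrity score, was 9.4 to 9.9 in runners and 9.5 to 9.9 in non-runners (exact permutation p = 0.785).

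Of 14549 genes tested, 247 differed between runners and non-runners at an edgeR adjusted p below 0.05, which is 1.7% of those tested. Of these 120 were higher in runners (0.825%) and 127 lower (0.873%). Changes were small, with a median of 1.25-fold. A change above 1.5-fold was seen for 40 of the 247, and one above 2-fold for 15, 10 up and 5 down. The groups did not overlap in CPM for 36 genes (0.247% of those tested), 12 higher and 24 lower in runners, and 28 of the 36 were called. The number of calls depended on single libraries. It was 150 without runner 2, 111 without runner 3, 83 without runner 4, 135 without runner 7 and 390 without runner 6. It was 110 without non-runner 1, 111 without non-runner 2, 75 without non-runner 3, 130 without non-runner 6 and 372 without non-runner 7. Calls held in all 16 leave-one-out fits for 59 genes, 19 higher and 40 lower.

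**Figure D1:**
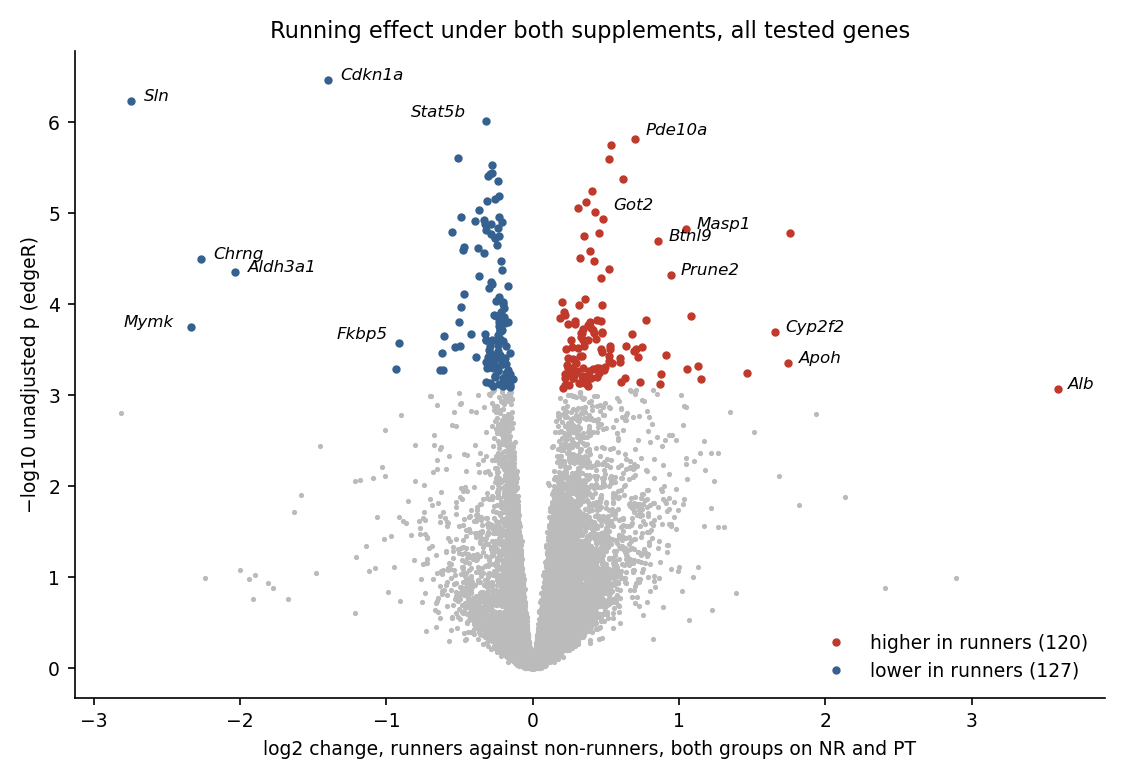
Each point is 1 of 14549 tested genes, with the log2 change between runners and non-runners given both supplements on the x axis and −log10 of the unadjusted edgeR p on the y axis. Called genes are coloured, 120 higher in red and 127 lower in blue; Sln and Cdkn1a lie highest on the left, and Alb, at the far right, was high in 1 runner library.

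The genes with the smallest p were Sln and Cdkn1a, and both fell. Sarcolipin (Sln, chromosome 9, 53850164 to 53854560 in mm10), a small inhibitor of the sarcoplasmic calcium pump, was lowest at 0.361, median 0.836 and highest 1.45 CPM in runners. In non-runners the same values were 3.62, 4.78 and 9.3 CPM, so every runner lay below every non-runner. Sln fell 6.7-fold (log2 change -2.74 ± 0.48, SE; adjusted p = 0.00424). Cdkn1a, which encodes the cell cycle inhibitor p21 (chromosome 17, 29090976 to 29100722), ranged from 6.39 over a median of 8.27 to 12.8 CPM in runners. In non-runners it ranged from 13.9 over 21.7 to 30.3 CPM, again without overlap. It fell 2.64-fold (-1.40 ± 0.24; adjusted p = 0.00424). Without overlap, both genes were necessarily lower in the runner in 8 of 8 day-matched pairs, which adds nothing to the separation. Both passed in all 16 leave-one-out fits.

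Fkbp5, a chaperone partner of the glucocorticoid receptor that glucocorticoids induce (chromosome 17, 28399094 to 28517524), showed a narrow range in runners. It lay between 29.1 and 34.6 CPM in the 8 runners (median 31.9) and between 36.4 and 83 CPM in the 8 non-runners (median 61.7). The groups did not overlap, and Fkbp5 fell 1.88-fold (-0.91 ± 0.23; adjusted p = 0.0305). Its call was lost without any 1 of runners 2, 3 and 4 and non-runners 1, 2, 3, 5 and 6, with a highest adjusted p of 0.0704. No other member of the 17 tested glucocorticoid-responsive genes was called. Their median log2 change was -0.146, with 2 above 0, beside a median of 0.017 and 54.3% above 0 over all tested genes. Without runner 6 the list median was -0.222.

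**Figure D2:**
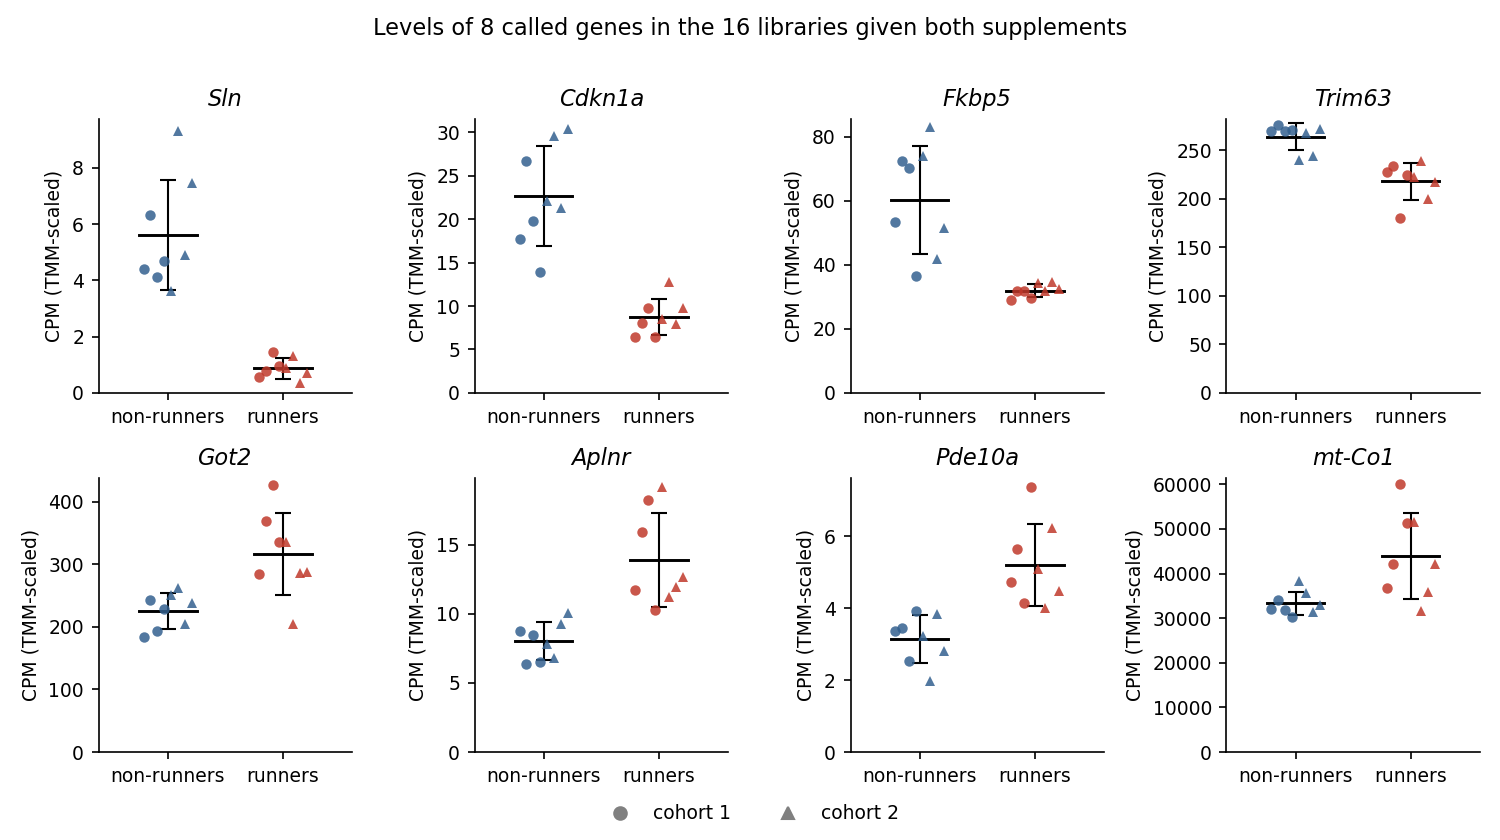
Levels of 8 called genes in CPM (y axes start at 0) in the 8 non-runners and 8 runners given both supplements; circles are cohort 1, triangles cohort 2, lines the mean and bars the SD. Runners and non-runners do not overlap for Sln, Cdkn1a, Fkbp5, Trim63, Aplnr and Pde10a, whereas they overlap for Got2 and mt-Co1.

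The list of regeneration, denervation and embryonic muscle genes had 4 falls and 1 rise among 21 tested members, beside 0.873% called lower and 0.825% higher over all tested genes. Besides Sln and Cdkn1a, the fetal acetylcholine receptor subunit Chrng fell (-2.27 ± 0.50; adjusted p = 0.00949), from a median of 0.806 CPM in non-runners to 0.0573 CPM in runners. Runner 3, at 0.895 CPM, lay inside the non-runner range of 0.442 to 1.25 CPM. Mymk, the membrane protein that fuses myoblasts, fell from 0.931 ± 0.293 to 0.178 ± 0.175 CPM (SD) without overlap (-2.34 ± 0.58; adjusted p = 0.0267). Its call was lost without runner 2, 4 or 7 or non-runner 3 (highest adjusted p = 0.0751). Chrng and Mymk reached at most 1.4 CPM in any of the 16 libraries. Actc1, the cardiac actin that is also made in developing muscle, moved the other way, from 167 ± 46.3 to 325 ± 169 CPM (0.88 ± 0.24; adjusted p = 0.0411). Runner 7 held 688 CPM of Actc1 and all others less, and its call was lost in 11 of 16 leave-one-out fits. The median of the list was -0.122, with 2 of 21 above 0, beside 54.3% above 0 over all tested genes.

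Calcium handling genes had a median of -0.097 and 3 of 21 above 0, beside 54.3% above 0 over all tested genes. Of the 21, 4 fell and 0 rose, beside 0.873% called lower and 0.825% higher over all tested genes. Besides Sln these were Mrln, which encodes myoregulin, another small inhibitor of the calcium pump (-0.47 ± 0.11; 53 ± 5.71 to 38.3 ± 4.67 CPM, SD; adjusted p = 0.018), Asph (-0.29 ± 0.06) and Jph1. Asph yields junctin, which anchors calsequestrin, and Jph1 tethers the tubules to the sarcoplasmic reticulum (-0.19 ± 0.05; adjusted p = 0.0347). Jph1 lost its call in 10 of 16 leave-one-out fits, and the other 3 kept theirs in all. In the atrophy and myostatin list 1 of 19 fell, Trim63. It lay between 180 and 238 CPM in runners and between 239 and 276 CPM in non-runners (-0.28 ± 0.07; adjusted p = 0.0346). Its call was lost without any 1 of runners 3, 4, 7 and 8 and non-runners 1, 2, 4 and 6 (highest adjusted p = 0.0868). Mstn, myostatin, was at 60.1 ± 11.6 and 84.3 ± 13.8 CPM (SD) and was not called (-0.47 ± 0.16; adjusted p = 0.105). Only 1 of the 19 had a log2 change above 0.

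Other falls, large and small, came from genes of varied function. Aldh3a1, an aldehyde dehydrogenase, fell from a median of 1.76 to 0.372 CPM (-2.03 ± 0.45; adjusted p = 0.0118). Rasd2, a small GTP-binding protein, fell from 117 ± 14.9 to 80.1 ± 13.3 CPM (SD) without overlap (-0.55 ± 0.12; adjusted p = 0.00678). Ttll7, a tubulin polyglutamylase, fell from 411 ± 50.7 to 289 ± 51.7 CPM (-0.51 ± 0.10; adjusted p = 0.0049), and Wnt4, a secreted signalling protein, by 0.49 ± 0.10 on the log2 scale. Stat5b, a transcription factor of growth hormone and cytokine signalling, fell by 0.32 ± 0.06 (adjusted p = 0.00474). Hspa5, the main chaperone of the endoplasmic reticulum, fell by 0.28 ± 0.05 (adjusted p = 0.0049). These 6 calls held in all 16 leave-one-out fits. Those of Kl (klotho, -0.94 ± 0.25), Myl4 (-0.63 ± 0.17), Stc2 (-0.61 ± 0.17), Tceal7 (-0.62 ± 0.16), Nhs (-0.61 ± 0.15), Gdf11 (-0.53 ± 0.14), Enox2 (-0.51 ± 0.12) and Galnt17 (-0.50 ± 0.13) were lost in 5 to 11 of the fits, with adjusted p up to 0.121.

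Insulin signalling, stress and antioxidant lists held few calls. Grb10, an adaptor that restrains the insulin receptor (chromosome 11, 11930508 to 12038683), fell from 51.3 ± 5.51 to 39.2 ± 5.79 CPM (SD; -0.40 ± 0.08; adjusted p = 0.00663). It was lower in the runner in all 8 pairs and kept its call in all 16 fits. It was the single call among 26 insulin signalling and glucose uptake genes (median -0.022), and 0 of 20 glycolysis and glycogen genes were called. In the chaperone list Hspa5 and Hspa8 (-0.24 ± 0.06) fell and 0 of 24 rose. In the antioxidant and aryl hydrocarbon list 3 of 27 fell, beside 0.873% over all tested genes. The 3 were Aldh3a1, Me1, the cytosolic malic enzyme (-0.23 ± 0.06), and Gpx3, the secreted glutathione peroxidase (-0.33 ± 0.08). The calls of Hspa8, Me1 and Gpx3 were lost in 11, 5 and 6 of 16 leave-one-out fits. The circadian clock list had 0 calls among 19 and a median of -0.054.

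Among rises above 1 CPM, the largest fitted changes were those of Alb, Apoh and Cyp2f2, and they moved with runner 6. Alb, serum albumin, was at 274 CPM in runner 6, while the median of the 8 runners was 0.517 CPM and the non-runners ranged from 0.145 to 0.939 CPM. Its fitted log2 change was 3.59 ± 1.01 (adjusted p = 0.0496) with runner 6 and -0.01 without it (adjusted p = 0.997). Apoh, an apolipoprotein, was at 11.2 CPM there and went from 1.75 ± 0.47 to 0.48 (adjusted p = 0.492). Cyp2f2, a cytochrome P450, was at 7.93 CPM there and went from 1.66 ± 0.41 to 1.13 (adjusted p = 0.0977). Without runner 6, 16 of the 247 calls were lost and 231 kept. The part of liver RNA in the other calls was not tested.

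Other rises were found in genes of varied function. Aplnr, the apelin receptor of endothelial cells (chromosome 2, 85136225 to 85139921), lay between 10.3 and 19.2 CPM in runners and between 6.41 and 10.1 CPM in non-runners. The groups did not overlap (0.78 ± 0.19; adjusted p = 0.0257), although the call was lost without runner 3 or 5 or non-runner 2 (highest adjusted p = 0.0619). Btnl9, a butyrophilin-like membrane protein, rose from 6.45 ± 0.948 to 11.8 ± 4.22 CPM (SD; 0.86 ± 0.18; adjusted p = 0.0071). Pde10a, a cyclic nucleotide phosphodiesterase (chromosome 17, 8525372 to 8981671), rose from 3.15 ± 0.664 to 5.21 ± 1.15 CPM without overlap (0.70 ± 0.13; adjusted p = 0.0049). Rai14, an actin-binding protein (0.53 ± 0.10), and Iqsec2, an exchange factor for Arf proteins (0.52 ± 0.10), also rose without overlap (adjusted p = 0.0049 each). Masp1, a protease of the complement lectin pathway, rose by 1.05 ± 0.22 and Prune2 by 0.94 ± 0.21. Apart from Aplnr, these calls held in all 16 leave-one-out fits.

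The remaining named rises were less stable. Smtnl1, a smoothelin-like muscle protein, went from 25.6 ± 11.3 to 52.6 ± 21.5 CPM (SD; 1.05 ± 0.28; adjusted p = 0.039) and lost its call in 11 of 16 fits. Slc15a5, a peptide transporter family member, went from a median of 0.862 to 2.09 CPM (1.08 ± 0.26; adjusted p = 0.0249). Its call was lost without runner 4, non-runner 1 or non-runner 3 (highest adjusted p = 0.0789). Sbk2 (0.73 ± 0.20), Exoc3l (0.71 ± 0.18) and Wdfy4 (0.69 ± 0.18) lost theirs in 12, 9 and 8 fits.

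With both cohorts together, oxidative metabolism genes had fitted changes above 0 almost throughout, and few of them passed the test. Of 36 nuclear complex I genes 1 rose, Ndufa10 (0.29 ± 0.08; adjusted p = 0.0416), and all 36 fitted changes were above 0 (35 with RLE scaling), with a median of 0.163. Of 38 genes of complexes II to V, 2 rose, Cox7a1 (0.45 ± 0.12; adjusted p = 0.0405) and Atp5b (0.27 ± 0.07; adjusted p = 0.0411), and all 38 were above 0 (median 0.198). Over all tested genes 54.3% were above 0 and 0.825% were called higher. Of 8 mitochondrially encoded genes tested, mt-Co1, a catalytic subunit of complex IV, rose (0.39 ± 0.10; adjusted p = 0.0257), and the median was 0.271. The list held 13, and mt-Nd4l, mt-Co2, mt-Co3, mt-Atp6 and mt-Atp8 were not among the tested genes. Runners ranged from 31697 to 59981 CPM of mt-Co1 and non-runners from 30357 to 38266 CPM, and runners 3, 4 and 5, all terminated in the morning, held the 3 highest shares of mitochondrial counts. The call of mt-Co1 was lost without runner 3, 4 or 5 or non-runner 3 (highest adjusted p = 0.0828). Ndufa10, Cox7a1 and Atp5b lost theirs in 11, 13 and 10 of 16 fits.

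Pyruvate oxidation and the tricarboxylic acid (TCA) cycle held the most calls of any metabolic list, 4 of 22, beside 0.825% called higher over all tested genes. The list median was 0.218 and all 22 were above 0, beside 54.3% over all tested genes. Got2, the mitochondrial aspartate aminotransferase (chromosome 8, 95864134 to 95888547), ranged from 205 over a median of 312 to 426 CPM in runners. In non-runners it ranged from 183 over 234 to 263 CPM, so that the groups overlapped. It rose by 0.48 ± 0.10 (adjusted p = 0.00663). Pdha1, a subunit of pyruvate dehydrogenase, rose by 0.35 ± 0.08 (adjusted p = 0.00678), and Got2 and Pdha1 kept their calls in all 16 fits. Cs, citrate synthase (0.23 ± 0.06; adjusted p = 0.032), and Dlat, another pyruvate dehydrogenase subunit (0.28 ± 0.08; adjusted p = 0.0423), lost theirs in 7 and 12. Ckmt2, the mitochondrial creatine kinase of muscle, rose by 0.68 ± 0.17 (adjusted p = 0.0274), and Ldhd, a mitochondrial D-lactate dehydrogenase, by 0.38 ± 0.10 (adjusted p = 0.0291). Their calls were lost in 7 and 6 fits. Of 29 fatty acid uptake and oxidation genes 0 were called, with a median of 0.142. Bdh1, the ketone body dehydrogenase, averaged 17.1 ± 10.8 CPM with running and 6.26 ± 5.1 CPM without (SD) and was not called (1.51 ± 0.47; adjusted p = 0.077).

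**Figure D3:**
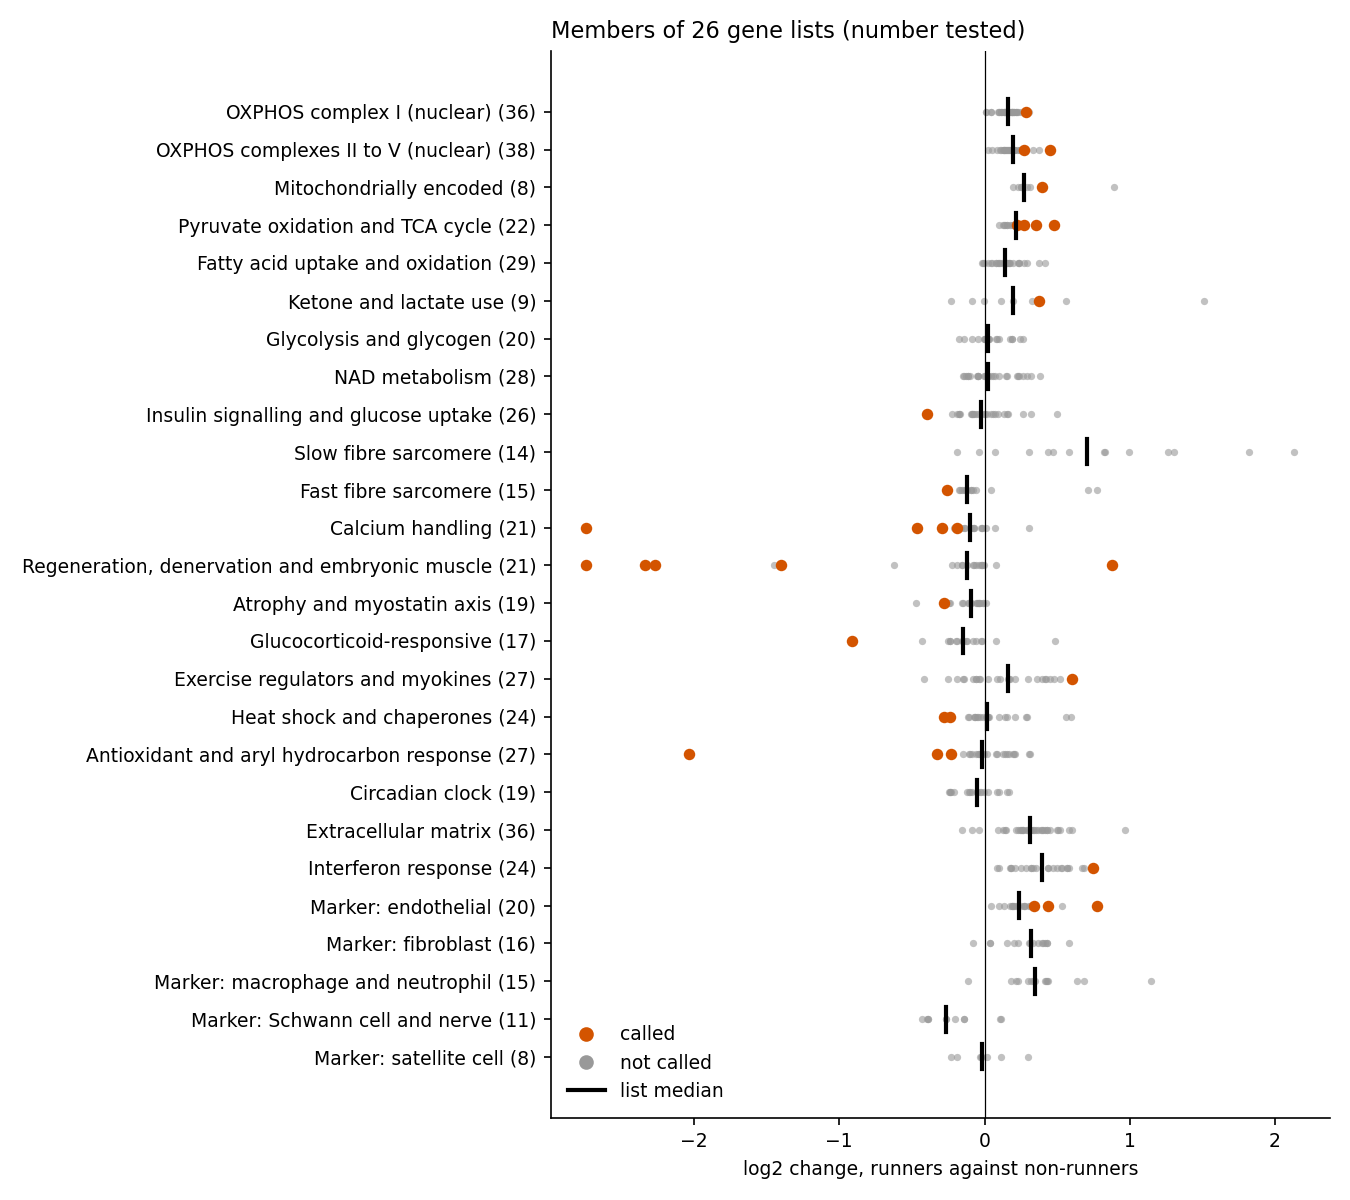
Fitted log2 change between runners and non-runners for every tested member of 26 gene lists, with called members in orange, the others in grey and the list median as a black bar. With both cohorts together, all tested members of both OXPHOS lists and of the mitochondrially encoded, TCA cycle, interferon and endothelial lists lie above 0. Few of them are called.

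By cohort, the mean levels of the complex II to V and TCA cycle lists separated runners from non-runners in cohort 1 and overlapped in cohort 2. Cohorts are those of the labels, with 4 runners and 4 non-runners in each, and the purification pool follows the cohort except for runner 5. In cohort 1 the mean log2 level of the complex II to V list was 8.13, 8.38, 8.50 and 8.35 in the runners and 7.87, 7.94, 7.94 and 7.96 in the non-runners. In cohort 2 it was 8.245, 7.83, 8.15 and 8.17 in the runners and 8.19, 8.14, 7.95 and 8.16 in the non-runners, with runner 6 the lowest of all 16. Every runner of cohort 1 was above every non-runner of that cohort, and in cohort 2 the groups overlapped. The median log2 change of the list was 0.393 in cohort 1 and -0.014 in cohort 2, and that of the TCA cycle list 0.384 and 0.049. Of the 36 complex I genes 36 were above 0 in cohort 1 and 7 in cohort 2 (medians 0.365 and -0.045). Of the 29 fatty acid uptake and oxidation genes 29 and 4 were above 0 (medians 0.326 and -0.07). Over all 14549 tested genes 7580 and 7564 were. All 8 tested mitochondrially encoded genes were above 0 in both cohorts, with medians of 0.39 and 0.154. With runner 6 left out, the medians of the complex II to V and TCA cycle lists over both cohorts were 0.237 and 0.251. Tested gene by gene, the difference between cohorts was called for 0 genes (0% of those tested; edgeR, lowest adjusted p = 0.48; 1250 at an unadjusted p below 0.05). Of the 38 complex II to V genes 28 had a smaller running effect in cohort 2 at an unadjusted p below 0.05, and 0 a larger one. Over all tested genes these counts were 737 and 513.

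**Figure D4:**
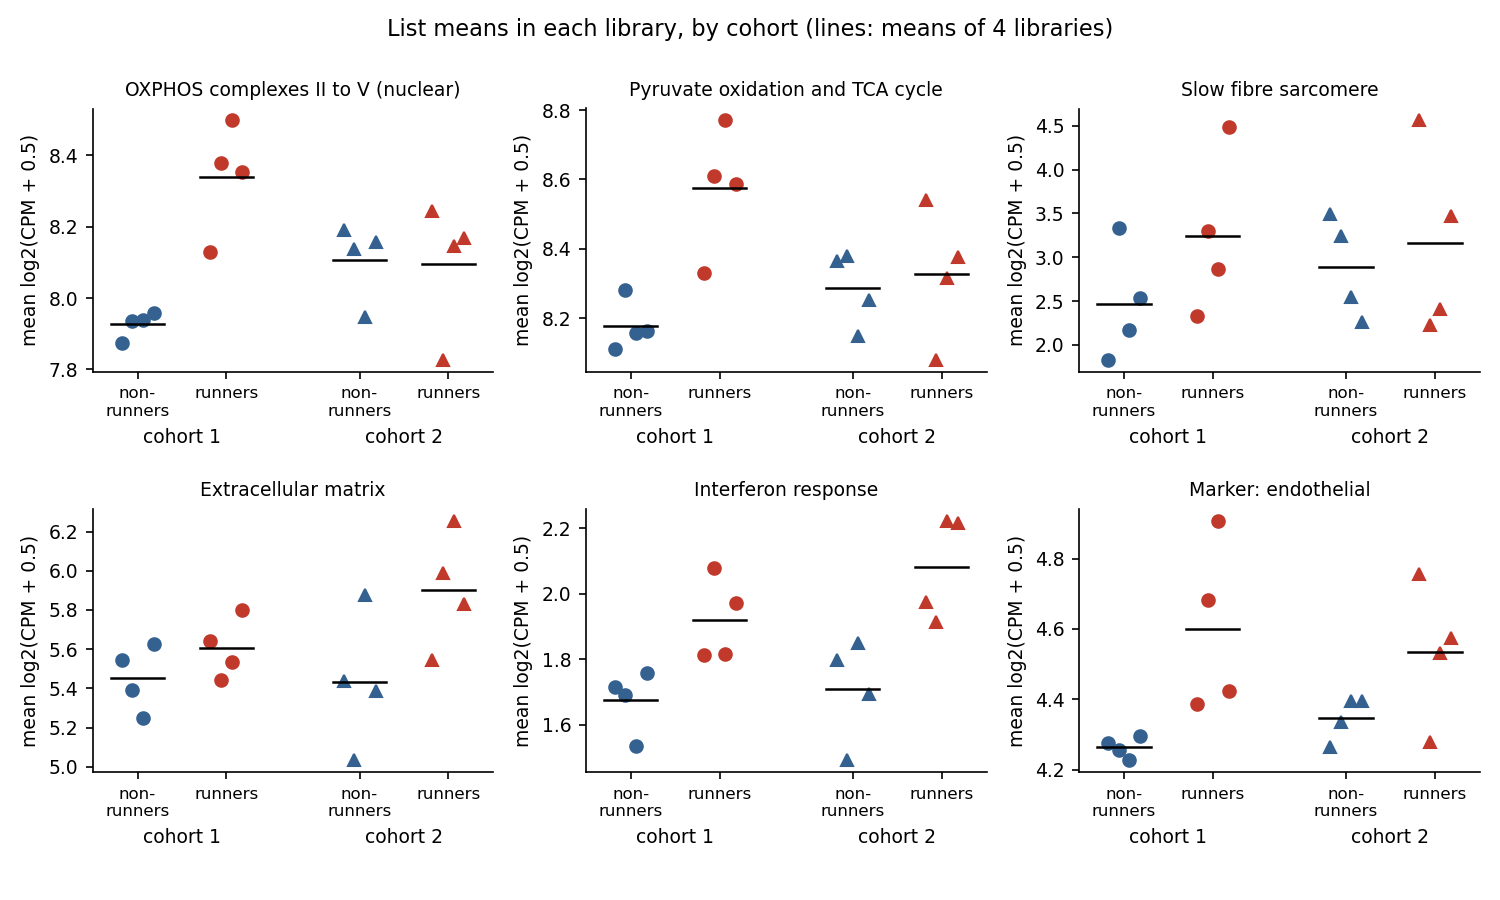
Mean log2(CPM + 0.5) of 6 gene lists in each library (y axis, not starting at 0), by cohort and group, with lines at the means of 4 libraries. Runners of cohort 1 lie above their non-runners for complexes II to V and for the TCA cycle list, cohort 2 shows overlap for both, and in the interferon list every runner of each cohort lies above the non-runners of that cohort.

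Fibre-type genes varied widely between animals. Of 14 slow-fibre sarcomere genes 0 were called, although 12 were above 0 and the median was 0.704. Over all tested genes 54.3% were above 0, with a median of 0.017. Myh7 was at 0.317, 2.52 and 58 CPM (lowest, median and highest) in runners and at 0.182, 1.53 and 4.46 CPM in non-runners (2.13 ± 0.83; adjusted p = 0.17). Runners 4 and 5 had the highest slow-fibre means, and without runner 5 the list median was 0.424. With morning animals alone it was 0.738 and with noon animals alone 0.033. Myl2, the slow regulatory light chain, was not called either (1.82 ± 0.73; adjusted p = 0.184), nor were Myh2 (0.71 ± 0.50), Myh1 (0.77 ± 0.27; adjusted p = 0.128) and Myh4 (-0.18 ± 0.08; adjusted p = 0.263). In the fast-fibre list of 15, Actn3, the fast-fibre alpha-actinin, fell (-0.26 ± 0.07; adjusted p = 0.0418), and its call was lost in 10 of 16 fits. Over all tested genes 0.873% were called lower. Mb, myoglobin, averaged 1563 ± 670 CPM with running and 834 ± 305 CPM without (SD; 0.90 ± 0.29; adjusted p = 0.0861).

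Of 20 endothelial markers 3 rose, beside 0.825% called higher over all tested genes. All 20 had a fitted change above 0, with a median of 0.24, beside 54.3% above 0 and a median of 0.017 over all tested genes. The 3 were Aplnr, Erg, an endothelial transcription factor (0.44 ± 0.11; adjusted p = 0.0257), and Cdh5, the cadherin of endothelial junctions (0.34 ± 0.09; adjusted p = 0.0274). The summed level of all 20 markers was 539.5 to 846.3 CPM in runners and 519.2 to 600.2 CPM in non-runners, and these ranges overlapped. In bulk tissue more cells of a type and more RNA per cell cannot be told apart. The calls of Erg and Cdh5 were lost in 5 and 4 leave-one-out fits. Fibroblast markers (median 0.321, 15 of 16 above 0) and macrophage and neutrophil markers (0.346, 14 of 15 above 0) held 0 calls each. Fibroblast sums were 2437 to 4691 CPM in runners and 2060 to 3633 in non-runners. Schwann cell and nerve markers had a median of -0.262 with 0 of 11 called, and satellite cell markers -0.019 with 0 of 8. Pericyte, adipocyte, erythrocyte, tendon and lymphocyte markers also held 0 calls.

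Matrix and interferon genes lay above 0 with few calls. Of 36 extracellular matrix genes 33 were above 0, 18 were higher at an unadjusted p below 0.05 and 0 were called (median 0.314). Over all tested genes 54.3% were above 0 and 0.825% were called higher. At that unadjusted p 9.52% of them were higher in runners and 7.11% lower. Of 24 interferon response genes all were above 0, 13 at an unadjusted p below 0.05, with a median of 0.396. One was called, Ifit3, an antiviral protein that interferon induces, which averaged 5.05 ± 1.46 CPM with running and 3.03 ± 0.72 CPM without (SD; 0.75 ± 0.19; adjusted p = 0.0315). Its call was lost in 8 of 16 fits (highest adjusted p = 0.081). The macrophage marker sum was 187.3 to 443.8 CPM in runners and 142.7 to 356.8 CPM in non-runners, and these ranges overlapped. Its part in the matrix and interferon lists was not tested.

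NAD metabolism showed no called gene. Of 28 tested genes 0 were called and 5 had an unadjusted p below 0.05, all higher in runners, with a median of 0.023. Over all tested genes 9.52% were higher at that p. Nampt, the rate-limiting enzyme of NAD salvage, averaged 165 ± 12.8 CPM with running and 163 ± 11.2 CPM without (SD; 0.02 ± 0.06). Nmrk2, the muscle NR kinase, ranged from 26.3 to 76.7 CPM in runners and from 21.1 to 71.9 CPM in non-runners (0.22 ± 0.28), and Nmrk1 changed by 0.16 ± 0.10. Sirt3, the mitochondrial deacetylase (0.29 ± 0.09; adjusted p = 0.0737), Cd38 (0.32 ± 0.12; adjusted p = 0.162) and Sirt1 (0.06 ± 0.08) were not called. Among 27 exercise regulators and myokines 1 rose, beside 0.825% called higher over all tested genes. It was Il15, a cytokine that muscle makes (0.61 ± 0.17; adjusted p = 0.0456), and its call was lost in 12 of 16 fits. Ppargc1a, a coactivator of mitochondrial genes, was at 38.2 ± 6.19 and 31.1 ± 4.32 CPM (SD; 0.30 ± 0.09; adjusted p = 0.078). Vegfa (0.17 ± 0.11), Hk2 (0.19 ± 0.10) and Pdk4 (0.48 ± 0.42) were not called.

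The same running contrast was fitted in the 3 other supplement arms, which share no library with this one but share the day and time terms of the fit. There 65 genes were called with NR alone (0.447% of those tested), 1 with PT alone (0.00687%) and 0 with neither (0%; 990 at an unadjusted p below 0.05, beside 2420 here). Arms had similar precision, with a median SE over all tested genes of 0.105 here and 0.104 to 0.111 in the others. Of the 247 genes called here, 15 were also called with NR alone, and 207 had the same sign in all 3 other arms. Singly, 93.5% had the same sign with neither, 94.7% with NR alone and 93.1% with PT alone, whereas over all tested genes 68.1, 65.3 and 66.7% did. The genes called higher had a median log2 change of 0.41 here, where they were chosen, and of 0.16, 0.22 and 0.2 with neither, NR alone and PT alone. For those called lower the values were -0.26 here and -0.12, -0.15 and -0.11.

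In the edgeR fit no gene was called for a difference in running effect between this arm and the others. Against the mean of the 3 other arms 0 genes were called (0%; edgeR, lowest adjusted p = 1; 499 at an unadjusted p below 0.05), and DESeq2 called 0. Against each other arm alone edgeR also called 0, with 450 at an unadjusted p below 0.05 for neither, 577 for NR alone and 518 for PT alone. DESeq2 called 8 for NR alone and 0 for neither and PT alone, and edgeR without day and time also called 8 for NR alone. Gpatch1 (difference -0.35 ± 0.09, SE), Arhgap44 (0.32 ± 0.09), Cdkn1a (-0.98 ± 0.27) and Prpf38a (-0.35 ± 0.10) were among the 5 genes with the smallest p against the mean of the others. For Sln the difference was -1.59 ± 0.56 and for Grb10 -0.34 ± 0.10, and all 6 had an edgeR adjusted p of 1.

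**Figure D5:**
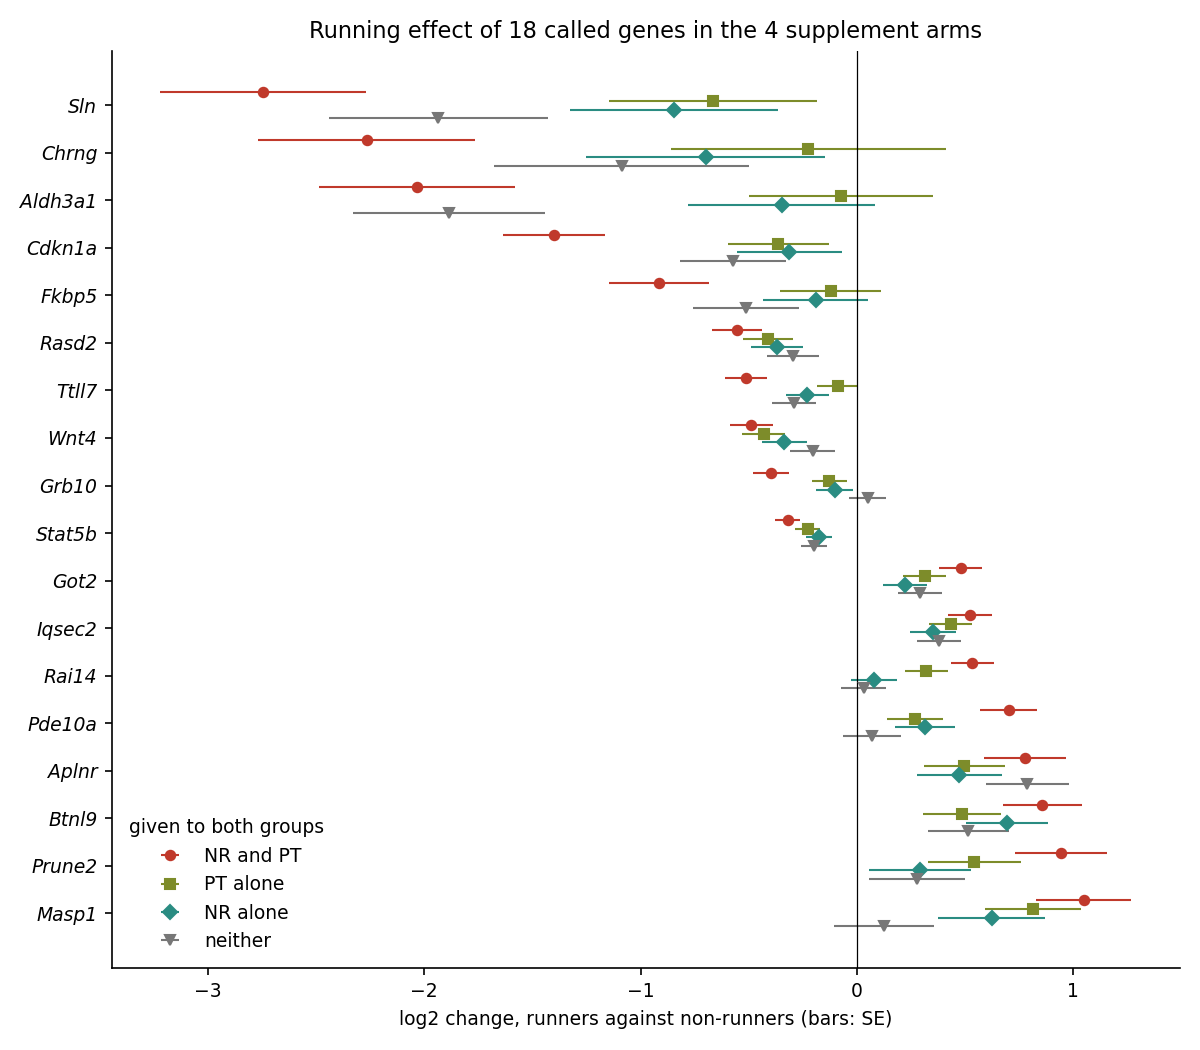
Fitted log2 change between runners and non-runners for 18 called genes in each of the 4 supplement arms, with SE bars; the genes were chosen for their change under NR and PT together. Points of the other arms mostly lie on the same side of 0 and nearer to it, and Aplnr and Iqsec2 are above 0 in all 4 arms.

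For Sln, Cdkn1a, Fkbp5 and Chrng the non-runners given both supplements had the highest mean of the 8 groups of the study, which was not so for Aldh3a1 or Rasd2. Cdkn1a averaged 22.7 ± 5.8 CPM in these non-runners and 16.9 ± 6.71, 14.5 ± 2.69 and 14.9 ± 4.55 CPM in non-runners given NR alone, PT alone and neither (SD, n = 8 each). Runner groups given NR alone and neither hold 7 libraries each, the other groups 8. In runners it averaged 8.71 ± 2.07 CPM with both, and 13.5 ± 5.15, 12.1 ± 7.9 and 10.7 ± 2 CPM in the other groups in that order. Fkbp5 averaged 60.3 ± 16.8 CPM in these non-runners against 47.2 ± 12.7, 38.1 ± 9.88 and 40.9 ± 14.3 CPM in the others, and 31.9 CPM in runners given both against 40.9, 35.9 and 29.2 CPM. Sln averaged 5.61 ± 1.95 CPM in these non-runners against 3.3 ± 3.24, 2.06 ± 0.957 and 3.1 ± 1.92 CPM, and runners lay between 0.803 and 1.74 CPM on average in all 4 groups. Chrng averaged 0.838 ± 0.255 CPM in these non-runners against 0.388, 0.163 and 0.297 CPM. Aldh3a1 was highest in non-runners given neither, at 2.12 ± 1.55 CPM, beside 1.81 ± 0.832 CPM with both, and Rasd2 in those given NR alone. All these genes were chosen as lower in runners than in these same non-runners, which favours a high mean in this group. The same ranking held for other genes called lower, such as Mymk, Ttll7, Wnt4 and Grb10, but not for Kl or Hspa5. It is therefore not particular to the genes named first, and it is no separate support for an effect of the supplements. These levels among non-runners are described, not tested.

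Promoter windows of 250 bases before to 50 bases after the RefSeq start (GRCm38.p6) were available for 87 of the 120 genes called higher and 100 of the 127 called lower, and 3 motifs were searched on both strands. The E-box CACGTG stood in 8% of the windows of genes called higher and 13% of those called lower, beside 11.6% over all 10679 tested genes with a window. The ERR motif TCAAGGTCA stood in 0 of either set and 0.3% over all, and the MEF2 motif CTAAAAATA in 1.1 and 0%, beside 0.4%.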

How the data were processed

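Quadriceps poly-A RNA of 62 male mice was sequenced, and the authors deposited raw counts, 1 column per mouse. Reads were aligned with STAR 2.7.3a and counted with featureCounts 2.0.0 on mm10, per the submitters' processing notes; strand setting and annotation release were not stated there, so genes that overlap on opposite strands or have near-identical copies are uncertain. Of 55487 identifiers 99.8% matched GENCODE M21, which gave symbols; coordinates are the deposited ones.

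All 62 libraries were fitted with edgeR 4.0.16 (R 4.3.3; filterByExpr minimum count 10 and total 15; TMM; quasi-likelihood F test, robust) on 8 groups, day and time of termination, with 46 residual degrees of freedom and a biological coefficient of variation of 14%. Tests were two-sided, and p-values were adjusted by Benjamini-Hochberg over 14549 genes. SE is the log2 change divided by the square root of F. The fit was also run on simulated counts that held no day, time or cohort effect and no outlying library. That run therefore does not bear on how the calls depend on these. Depth (9.19 to 27.22 M counts in these 16) limits genes near 1 CPM most; without molecular identifiers, counting error is the only part that depth describes.

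Named genes were the 15 largest rises and falls at 1 CPM or more, the 8 smallest p, up to 4 members per list, 5 per difference contrast and a fixed list; not all are printed. The lists, members and rule were chosen with earlier results of these data known, and the hepatocyte list after its values were seen. Alternatives were DESeq2 1.42.0, limma 3.58.1 voom and those in the closing section. Replicate numbers did not pair the samples (correlations of deviations from -0.206 to 0.069), nor did the day (-0.098 to 0.065). Over the 28 pairs of replicates in each group, chi-square per gene was at least 4.49, so none was counted as 1 library.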

Additional observations from a re-analysis of the deposited data

Results flagged for a closer look

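Samples far from the rest of their group of 8 were sought among the named genes and library measures, by the gap to the nearest sample divided by the range (Dixon's test). Chance alone passes that limit in about 1 in 20 groups, and 14 of 170 groups tested passed it. Among runners, number 6 stood apart for Alb (274 CPM), Apoh (11.2 CPM) and Cyp2f2 (7.93 CPM). Runner 1 was lowest for Masp1 (1.51 CPM), runner 7 highest for Actc1 (688 CPM), runner 3 highest for Chrng (0.895 CPM) and runner 2 highest for Bdh1 (39.6 CPM). Runner 5 had the highest ribosomal-RNA-like share of runners (0.216%).

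Among non-runners, number 5 was highest for Slc15a5 (3.55 CPM) and for the mitochondrial share of counts (12.46%). Number 6 was highest for Hspa8 (604 CPM), and number 4 lowest for Ppargc1a (21.7 CPM) and highest for the share of the 10 most abundant genes (26.95%). Number 2 had a ribosomal-RNA-like share of 1.426%.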

How the results depend on the processing

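The reported fit called 247 genes, 120 higher and 127 lower in runners. DESeq2 called 470 (206 and 264). Without a low-count filter 86 were called (27 and 59), with the purification pool as a covariate 163 (74 higher), and without the ribosomal-RNA-rich libraries 145 (38 higher). The 16 libraries alone gave 26 calls with day as a block and time (10 and 16), 22 of them among the 247, and 94 without either term (28 and 66). Cohort 1 alone gave 52 (37 and 15) and cohort 2 alone 0 (edgeR; 1392 genes at an unadjusted p below 0.05). Morning animals alone gave 25 (15 and 10) and noon animals alone 1 (0 and 1); these 2 fits were chosen after seeing the data. Leaving out 1 library gave 75 to 390 calls, 26 to 195 higher and 46 to 206 lower. With the replicate block in place of day and time 246 were called. The numbers of calls under RLE scaling, without day and time, and with the session as a random block stayed within 1.5 times of 247. All 247 genes kept their sign under DESeq2, RLE, either 16-library fit and either cohort. They were chosen from these same libraries, so the kept sign is not separate support. Of the 247, cohort 1 alone called 28 and cohort 2 alone 0. The difference from running with NR alone, 0 genes as reported, was 8 with DESeq2 and 8 without day and time.

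Reversed signs were Alb without runner 6 (-0.01; -0.01 to 3.96 over single libraries left out), Myh7 at noon (-0.15), Myh2 in cohort 2 (-0.08), Nmrk2 in the morning (-0.03), Nampt (-0.02) and Sirt1 (-0.01) without the ribosomal-RNA-rich libraries, Nampt without non-runner 8 (-0.0018 to 0.05 over single libraries left out) and Sirt1 without runner 6 (-0.0044 to 0.08). Apart from Alb, none of these genes was called. The cause was not tested; the subset fits hold fewer samples.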
